A study of Mus musculus with 6 samples.

Results

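ATP-binding cassette (ABC) proteins were taken as every gene whose symbol was Abc, a subfamily letter from a to g, a number and at most 1 further letter. The rule found 50 of the 24354 gene names in the table, 16 in subfamily A, 10 in B, 10 in C, 4 in D, 1 in E, 3 in F and 6 in G. Of the 50 genes, 26 had a mean above 1 FPKM (fragments, corrected for transcript length and for the mapped reads of a library) over the 6 samples and entered the test, and 24 did not. Translating ribosome affinity purification (TRAP), which pulls down tagged ribosomes with the mRNA they carry, had been applied to the choroid plexus (ChP) of 3 adult samples, labelled 60 days old, and 3 samples at embryonic day 16.5 (E16.5). All 6 samples carried the genotype FoxJ1:cre x bacTRAP (EGFP:L10a), so that a ribosomal protein fused to EGFP was switched on by Cre under the FoxJ1 promoter, which is active in multiciliated cells generally and not in ChP epithelium alone. The study's methods describe pools, of 3 mice for an adult sample and of 3 litters for an embryonic one, whereas the series' own design text speaks of 3 mice at each age. There was no untagged or unpurified control among the samples, and how many animals a replicate stands for is not settled, so that p-values measure the spread between these samples.

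Most ABC proteins use ATP to move substrates across a membrane, and they are named for the paired ATP-binding domains that power them. Members of subfamilies A and G move mainly lipids and sterols, and several members of B and C expel drugs, conjugates and organic anions. Other members of B sit in mitochondria, and most D members bring fatty acids into peroxisomes. E and F members have no membrane-spanning part and act on ribosomes and translation. The ChP epithelium makes cerebrospinal fluid and forms the barrier between blood and that fluid, where efflux of conjugates towards the blood is one of its known tasks.

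The genes called between the ages (adjusted p under 0.05, limma) were Abca2, Abca4, Abca7 and Abcc4, higher in adult, and Abcg5, higher at E16.5. Their promoter stretches are shown because these genes carry the comparison. The sequences are from the RefSeq promoter table of GRCm38.p6, each 5′ to 3′ on the strand named, and the table held 38 of the 50 genes and 20 of the 26 tested. Capitals mark matches, on either strand, to the GC box GGGCGG, the OTX core TAATCC, the GATA core AGATAA or the E box CACGTG. Those for single genes are the 250 bases before the start.
Abca2, chr2:25428349-25428598, plus strand: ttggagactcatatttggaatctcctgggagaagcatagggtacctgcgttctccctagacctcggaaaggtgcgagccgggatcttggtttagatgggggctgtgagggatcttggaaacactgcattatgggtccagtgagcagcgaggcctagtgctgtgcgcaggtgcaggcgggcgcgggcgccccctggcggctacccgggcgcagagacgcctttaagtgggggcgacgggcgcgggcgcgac
Abca4, chr3:122044210-122044459, plus strand: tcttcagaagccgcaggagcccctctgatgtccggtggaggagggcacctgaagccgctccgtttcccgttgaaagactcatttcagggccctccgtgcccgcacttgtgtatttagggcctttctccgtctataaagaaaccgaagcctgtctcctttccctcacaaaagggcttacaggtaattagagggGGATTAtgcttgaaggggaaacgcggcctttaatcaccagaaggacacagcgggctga
Abca7, chr10:79996244-79996493, plus strand: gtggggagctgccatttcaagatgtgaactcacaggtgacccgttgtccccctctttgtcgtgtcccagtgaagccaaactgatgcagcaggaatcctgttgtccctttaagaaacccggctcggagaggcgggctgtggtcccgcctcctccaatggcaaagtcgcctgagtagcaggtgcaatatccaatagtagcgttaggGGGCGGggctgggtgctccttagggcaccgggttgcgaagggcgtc
Abcc4, chr14:118706220-118706469, minus strand: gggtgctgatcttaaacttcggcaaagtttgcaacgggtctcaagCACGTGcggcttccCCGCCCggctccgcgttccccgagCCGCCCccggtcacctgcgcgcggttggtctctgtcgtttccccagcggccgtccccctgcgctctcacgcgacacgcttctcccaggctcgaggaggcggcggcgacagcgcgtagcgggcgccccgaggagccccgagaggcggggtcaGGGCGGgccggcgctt
Abcg5 and Abcg8, between their starts, chr17:84683012-84683120, plus strand: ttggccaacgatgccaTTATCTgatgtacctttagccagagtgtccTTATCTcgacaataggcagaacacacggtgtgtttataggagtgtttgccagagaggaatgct

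Abca2 held none of the 4 motifs in this window. Abca4 held 1 OTX core, 58 bases before the start. Abca7 held 1 GC box, 46 bases before the start. Abcc4 held 3 GC boxes, at 191, 167 and 16 bases before the start, and 1 E box at 205. The 109 bases between the divergent RefSeq starts of Abcg5 and Abcg8, the downstream one of 2 listed for Abcg8, held 2 GATA cores, at positions 17 and 47 of the printed stretch. Over the 32851 promoters of the table, 250 bases held the GC box in 32.7%, the OTX core in 6.25%, the GATA core in 9.99% and the E box in 6.02%. A window of 109 bases held 2 or more GATA cores in 0.186%. The 20 tested ABC genes with an entry held the GC box in 11, the OTX core in 3, the GATA core in 2 and the E box in 4. A longer motif to which liver X receptors are known to bind, AGGTCA repeated in the same direction after 4 bases, was found in 0 of the 20 and in 0.0152% of all promoters. A motif that rare would seldom be met among 20 promoters, and only exact matches were sought. The 0 therefore says nothing on liver X receptor sites. A match is a run of letters and no binding was measured here.

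Beside the values below stand 3 properties of the libraries. The FPKM worth of 1 read in a kilobase was 0.114 to 0.327 in the adult libraries and 0.0653 to 0.0798 in the E16.5 libraries, so the adult libraries were the shallower. Of the tested genes, 10.3% to 36.4% were listed at 0 in an adult library and 3.68% to 4.02% in an E16.5 library, and a single short RNA, Mir6236, took 32.7% to 51.7% of the summed FPKM in adult against 13.3% to 15.002%. The 12 ChP epithelium markers were all above 1 FPKM in every adult library and 11 of them in every E16.5 library, where Ttr was listed at 0, and their sum was 39782 to 55159 FPKM in adult and 4113 to 4668 FPKM at E16.5. That gap came from Ttr and Enpp2, since the other 10 summed to 3974 to 5126 FPKM in adult and 3839 to 4426 FPKM at E16.5. Of the 12, Ttr, Enpp2, Kl and Kcnj13 were called higher in adult and Otx2 and Kcne2 higher at E16.5. The Ttr call rests on the listed 0 in every E16.5 library, although these were the deeper libraries. Whether that 0 is a real absence or arose in the quantification was not tested. Sums of the markers listed for other cells also moved. The 7 ependymal markers summed to 8.84 to 26.2 FPKM in adult and 420 to 648 FPKM at E16.5, with 3 of them at 0 in every adult library. That E16.5 sum came mainly from Mia (146 to 386 FPKM), Enkur (96.5 to 166 FPKM) and Cfap43 (72.1 to 144 FPKM). Tmem212 was at 0 in every E16.5 library and Ccdc153 was above 0 only in E16.5 replicate 1, at 1.35 FPKM. The sum thus rests on a part of the list, and which cells it came from was not tested. The 10 markers of neurons and neural progenitors summed to 4.51 to 14.4 and 47.8 to 164 FPKM, with 4 at 0 in every adult library, the 8 red blood cell markers in the table to 0 to 6.49 and 56.7 to 388 FPKM, with 7 at 0 in every adult library, and the 9 mesenchyme markers to 21.9 to 35.2 and 83.8 to 119 FPKM, with 2 at 0 there. Sums overlapped between the ages for the 10 endothelial markers (0.489 to 27.2 and 12.7 to 40.9 FPKM), the 9 pericyte markers (5.94 to 27.5 and 8.55 to 12.7 FPKM), the 10 macrophage markers (0.0695 to 6.82 and 0.584 to 8.48 FPKM) and the 10 markers of oligodendrocytes and astrocytes (4.65 to 73.0 and 7.01 to 20.1 FPKM). At 0 in every adult library were 4 of the endothelial, 2 of the pericyte, 7 of the macrophage and 3 of the glial markers. The part of these differences in the ABC values was not tested, and in such bulk samples fewer cells of a type and less RNA per cell cannot be told apart.

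The lipid transporters of subfamily A held 3 of the 5 called ABC genes. All 7 of its tested members had a positive change, from 0.49 to 3.21 on the log2(FPKM + 1) scale with a median of 2.11, and the 3 called were all higher in adult. Over the 26 tested ABC genes, 4 (15.4%) were called higher in adult, where 2.12% of the 11601 genes tested were, and 1 (3.85%) was called higher at E16.5, where 8.83% were. At an unadjusted p under 0.05 the counts were 7 and 2 ABC genes, and 5.34% and 25.9% of all genes tested. The median change was 0.34 for the ABC genes and -0.86 for all genes tested, and 23 of the 26 lay above the latter. A positive change was found in 17 (65.4%) of the ABC genes and in 27.2% of all genes tested. These are descriptions of the genes that passed the filter, which a gene high at 1 age can pass by that age alone. Abca7, Abcc10, Abcg4 and Abcg5, each with a mean under 1 FPKM at the other age, passed in that way.

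**Figure D1:**
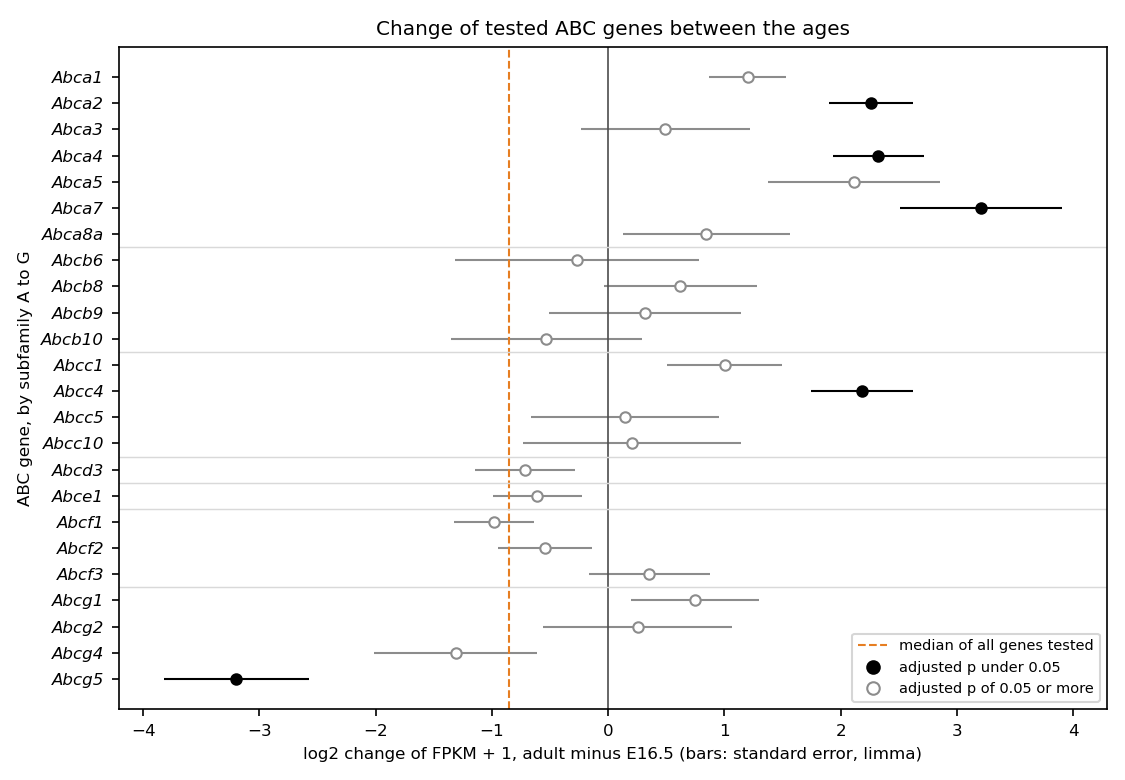
Change of 24 tested ABC genes between the ages, as adult minus E16.5 on the log2(FPKM + 1) scale, with genes by subfamily from top to bottom, points at the limma estimate and bars at 1 standard error. Filled points have an adjusted p under 0.05, and the dashed line marks the median of all genes tested at -0.86; the 7 subfamily A genes all lie to the right of 0 and Abcg5 lies farthest to the left at -3.20.

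Abca2, an endosomal and lysosomal lipid transporter also known from myelinating cells, was at 56.8, 45.3 and 49.5 FPKM in the adult samples and at 8.73, 10.5 and 9.94 FPKM at E16.5. The lowest adult sample was thus more than 4-fold above the highest E16.5 sample. Means were 50.5 ± 5.83 and 9.71 ± 0.891 FPKM (SD, n = 3 each), a 5.21-fold ratio, and the change was 2.26 ± 0.36 on the log2 scale (SE, adjusted p = 0.0136, limma). The myelin gene Mbp was at 1.05, 6.30 and 58.7 FPKM in the same adult samples and at 2.90 to 5.18 FPKM at E16.5. Whether myelinating cells had a part in the Abca2 values was not tested. The gene lies on chromosome 2 at 25428703 to 25448540 of mm10.

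Abca4, known as the flippase that clears retinal adducts from photoreceptor discs, was at 51.3, 61.0 and 38.8 FPKM in adult and at 9.37, 7.82 and 10.2 FPKM at E16.5. The ages did not overlap and the E16.5 samples lay within 3 FPKM of each other. Means were 50.4 ± 11.1 and 9.13 ± 1.20 FPKM (SD, n = 3 each), a 5.52-fold ratio, and the change was 2.33 ± 0.39 (SE, adjusted p = 0.0151, limma). The gene spans chromosome 3 from 122044443 to 122180123. Ranked among the tested genes of its own library, Abca4 stood at the 85.2 to 91.8 percentile in adult and at 37.96 to 46.9 at E16.5, and Abca2 at 88.0 to 92.6 and 41.0 to 46.1. Such ranks are not level between the ages, as 10.3% to 36.4% of the tested genes were at 0 in an adult library. At E16.5 the share was 3.68% to 4.02%. At a like FPKM a gene above 0 thus ranks higher in adult. Abca3 stood at 45.9 with 2.16 FPKM in adult replicate 3 and at 18.1 with 2.71 FPKM in E16.5 replicate 3.

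Abca7, a phospholipid transporter close in sequence to Abca1 and known from genetic studies of Alzheimer's disease, was at 22.2, 9.96 and 5.51 FPKM in adult and at 0.249, 0.277 and 0.318 FPKM at E16.5. The adult samples spread over a 4-fold range, and all lay far above the E16.5 samples, whose values stood for an estimated 20.3, 27.5 and 30.4 reads. The ratio of the means was 44.6 (12.5 ± 8.62 and 0.281 ± 0.0347 FPKM, SD, n = 3 each), and the change was 3.21 ± 0.70 (SE, adjusted p = 0.0321, limma), a scale that understates the ratio because the E16.5 values lie under the pseudocount of 1. The gene lies on chromosome 10 at 79996494 to 80015572. Its call was lost under 6 of 17 alternatives, among them the fit without adult replicate 1 (adjusted p = 0.0646, limma), while the change stayed between 2.72 and 5.204.

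Abca1, which loads cholesterol and phospholipid onto apolipoproteins, was the most abundant of the subfamily at both ages, at 80.1, 63.6 and 77.2 FPKM in adult and at 24.6, 30.3 and 41.0 FPKM at E16.5. Every adult sample exceeded every E16.5 sample, yet the change of 1.20 ± 0.33 did not pass the test (SE, adjusted p = 0.0573, limma). It did pass under 3 of the 17 alternatives, and its size depended on the scaling. The change was 0.39 with equal summed FPKM (adjusted p = 0.471, limma) and 1.63 with quantile normalization (adjusted p = 0.0274, limma). Within its library the gene stood at the 92.3 to 95.4 percentile in adult and at 70.7 to 83.1 at E16.5. The more frequent 0 values in adult raise the adult ranks here too.

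Abca5, a lysosomal member, also did not overlap between the ages, with 24.3, 11.9 and 16.9 FPKM in adult and 2.78, 0.932 and 8.88 FPKM at E16.5. The spread at E16.5 was almost 10-fold, and the change of 2.11 had an adjusted p of 0.103 (limma). Abca3, known for filling the surfactant bodies of the lung, and Abca8a overlapped between the ages, with changes of 0.49 and 0.85 and adjusted p of 0.666 and 0.441 (limma). Abca5, Abca8a, Abca9, Abca6 and Abca8b form a cluster on chromosome 11, in which Abca6 was listed at 0 in every sample and Abca8b and Abca9 reached at most 0.454 and 1.13 FPKM.

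**Figure D2:**
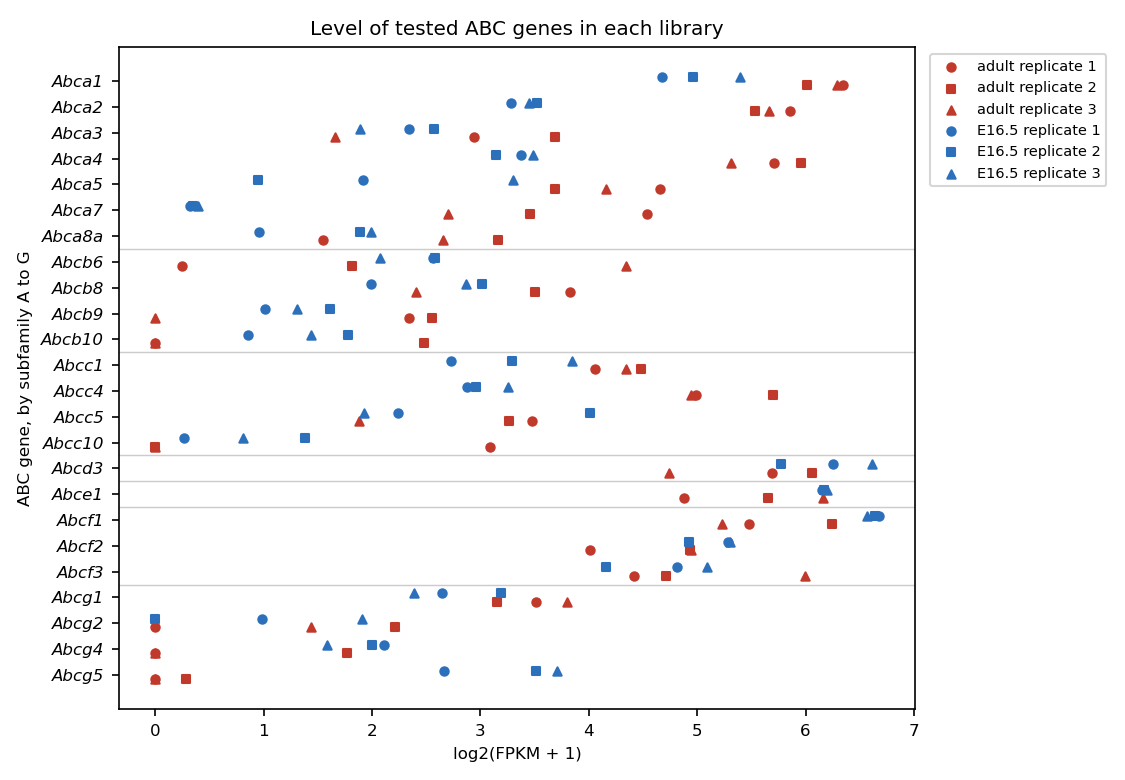
Level of 24 tested ABC genes in each of the 6 libraries, as log2(FPKM + 1), with genes by subfamily from top to bottom, adult libraries in red and E16.5 libraries in blue. Red points lie right of all blue points for Abca1, Abca2, Abca4, Abca5, Abca7, Abcc1 and Abcc4 and left of them for Abcf1 and Abcg5, and the adult points of several low genes sit at 0.

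Among the 4 tested members of subfamily G only Abcg5 was called. Abcg5, which works only when paired with Abcg8 and is known for excreting plant sterols and cholesterol in liver and intestine, was at 5.34, 10.4 and 12.04 FPKM at E16.5, and in adult was listed at 0 in replicates 1 and 3 and at 0.219 FPKM in replicate 2. The adult value stood for an estimated 4.1 reads and the E16.5 values for 143.9 to 380.6 reads, while 3 reads would have given 0.159 to 0.457 FPKM in the adult libraries. A 0 there is not a firm absence, as adult replicates 1 and 3 listed 22.0% and 36.4% of the tested genes at 0. Abcb10 was at 0 in both and stood for an estimated 165.1 reads in adult replicate 2. The fitted change of Abcg5 was -3.20 ± 0.62 (SE, adjusted p = 0.0242, limma), and Abcg5 was called in 11 of the 17 alternatives. Its partner Abcg8, below the filter and so not tested, was listed at 0 in all 3 adult samples and was at 0.169, 2.12 and 1.86 FPKM at E16.5. Both genes of the pair thus had their higher values at E16.5, although Abcg8 stood for only 7.3 estimated reads in E16.5 replicate 1, and 3 reads of it would have given 0.0987 to 0.283 FPKM in the adult libraries. The genes lie head to head on chromosome 17, in the GENCODE annotation, whose Abcg8 begins at a start inside Abcg5, with Abcg5 at 84658234 to 84683011 and Abcg8 at 84676302 to 84700333, with 3.02% of the exonic bases of Abcg5 overlapping its neighbour on the other strand.

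Abcg1 and Abcg4, which pass cholesterol to lipoproteins, did not differ beyond their spread. Abcg1 was at 10.5, 7.91 and 12.96 FPKM in adult and 5.28, 8.12 and 4.25 FPKM at E16.5 (change 0.75, adjusted p = 0.383, limma). Abcg4 was listed at 0 in 2 adult samples and at 2.403 FPKM in the other, against 1.9998 to 3.33 FPKM at E16.5 (change -1.31, adjusted p = 0.237, limma). Abcg2, the breast cancer resistance protein of drug efflux, was at 0, 3.65 and 1.71 FPKM in adult and 0.975, 0 and 2.76 FPKM at E16.5, so that neither age gave a settled level (change 0.25, adjusted p = 0.848, limma).

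Among the efflux transporters of subfamily C, Abcc4 stood out. Abcc4 (MRP4), which exports cyclic nucleotides, prostaglandins and organic anions, was at 30.8, 51.1 and 29.8 FPKM in adult and at 6.33, 6.79 and 8.54 FPKM at E16.5. The ages were separated by more than 20 FPKM. Means were 37.2 ± 12.03 and 7.22 ± 1.17 FPKM (SD, n = 3 each), a 5.16-fold ratio, and the change was 2.18 ± 0.44 (SE, adjusted p = 0.0260, limma). The call was lost under 6 of the 17 alternatives, and in the fits that left out 1 library the adjusted p reached 0.0740 without E16.5 replicate 2, or 0.0931 without E16.5 replicate 1 where the filter was taken anew (limma). The change stayed at 1.94 to 2.32 in those fits. The gene spans chromosome 14 from 118482692 to 118706219.

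Abcc1 (MRP1), the glutathione and glucuronide conjugate exporter of the blood-facing ChP membrane, was at 15.7, 21.4 and 19.2 FPKM in adult and at 5.64, 8.82 and 13.4 FPKM at E16.5. Its samples did not overlap, with a 2.02-fold ratio of means, but the change of 1.003 ± 0.49 did not pass (SE, adjusted p = 0.207, limma). Abcc5, a further exporter of cyclic nucleotides, overlapped between the ages (2.68 to 10.1 and 2.79 to 15.2 FPKM). Abcc10 was at 7.51 FPKM in adult replicate 1 and listed at 0 in the other adult samples, against 0.205 to 1.61 FPKM at E16.5.

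The drug pump P-glycoprotein, known from brain capillary endothelium, was at or near 0 at both ages. Abcb1a was above 0 only in adult replicate 2, at 0.732 FPKM, and Abcb1b was listed at 0 in all 6 samples. The genes share 17.6% and 11.6% of their 50-base stretches with other genes, mostly each other, so reads of either could be split or lost. The bile transporters Abcb11 and Abcc2 were likewise at 0 throughout, and Abcb4 was above 0 in a single library, E16.5 replicate 1, at 0.597 FPKM.

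Of the subfamily B members Abcb6, Abcb8, Abcb9 and Abcb10, the limma test called 0, and 0 had an unadjusted p under 0.05. Abcb8, which sits in mitochondria, had 4.29 to 13.2 FPKM in adult and 2.97 to 7.11 FPKM at E16.5. Abcb10, which acts in haem synthesis of red cell precursors, was at 4.59 FPKM in adult replicate 2 and at 0 in the other 2, against 0.815 to 2.43 FPKM at E16.5. Abcb6, a porphyrin transporter, was at 0.187, 2.52 and 19.4 FPKM in adult, a range that enclosed the 3.20 to 4.997 FPKM at E16.5. The locus of Abcb6 overlaps a second annotated gene on the same strand, with which it shares 50.009% of its 50-base stretches. The lysosomal peptide transporter Abcb9 was listed at 0 in adult replicate 3 and reached 4.86 FPKM in the other adult samples, against 1.02 to 2.06 FPKM at E16.5.

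The peroxisomal and ribosome-associated members, apart from Abcf3, had lower means in adult, with none called. A lower value in adult was common, as only 27.2% of all genes tested had a positive change and their median change was -0.86. The changes of Abcd3, Abce1 and Abcf2 lay above that median. Abcd3, the abundant fatty acid transporter of the peroxisomal membrane, was at 50.8, 65.9 and 25.7 FPKM in adult and 75.3, 53.7 and 97.0 FPKM at E16.5 (change -0.71 ± 0.43 SE, adjusted p = 0.292, limma). Abce1, which splits ribosomes after termination, was at 70.1, 71.2 and 72.3 FPKM at E16.5, a very narrow spread, and at 28.3, 49.5 and 70.7 FPKM in adult (change -0.61 ± 0.38 SE, adjusted p = 0.312, limma). Abcf1, which binds the initiation factor eIF2, was the most abundant ABC gene at E16.5, at 101, 98.8 and 93.8 FPKM, and was at 43.5, 74.7 and 36.4 FPKM in adult. Its samples did not overlap, but the change of -0.98 ± 0.34 did not pass (SE, adjusted p = 0.104, limma) and was close to the median of all genes tested. Abcf2 and Abcf3 overlapped between the ages, with changes of -0.54 and 0.35 and adjusted p of 0.390 and 0.665 (limma). Of the 26 tested ABC genes, 8 (30.8%) had every adult sample above every E16.5 sample and 2 (7.69%) the reverse, where all genes tested gave 7.39% and 31.0%.

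Shares of the summed FPKM of all ABC genes within a library do not depend on any scaling between libraries. Subfamily A made up 48.6%, 35.8% and 37.4% of the ABC sum in adult and 12.3%, 14.3% and 15.96% at E16.5. Subfamilies E and F together made up 21.4%, 30.1% and 38.2% in adult and 57.0%, 53.3% and 49.6% at E16.5. The order of these groups was thus reversed between the ages in replicates 1 and 2 of the adult, while in adult replicate 3 the shares of A and of E and F were about level. The ratio of the sum of A to that of E and F was 2.27, 1.19 and 0.979 in adult and 0.215, 0.268 and 0.322 at E16.5. Subfamilies B and C also held larger shares in adult (5.66% ± 0.714 against 3.54% ± 0.876, and 12.1% ± 1.995 against 6.01% ± 2.25, SD, n = 3 each), and D and G smaller ones (9.28% ± 3.59 against 18.2% ± 4.04, and 2.43% ± 0.362 against 4.75% ± 1.10). No share overlapped between the ages, which gives an exact two-sided permutation p of 0.1, the smallest that 3 against 3 allows. Shares of 1 sum are tied to each other, so these are not 7 separate results. The summed ABC FPKM itself was 501, 595 and 522 in adult and 414, 406 and 480 at E16.5.

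**Figure D3:**
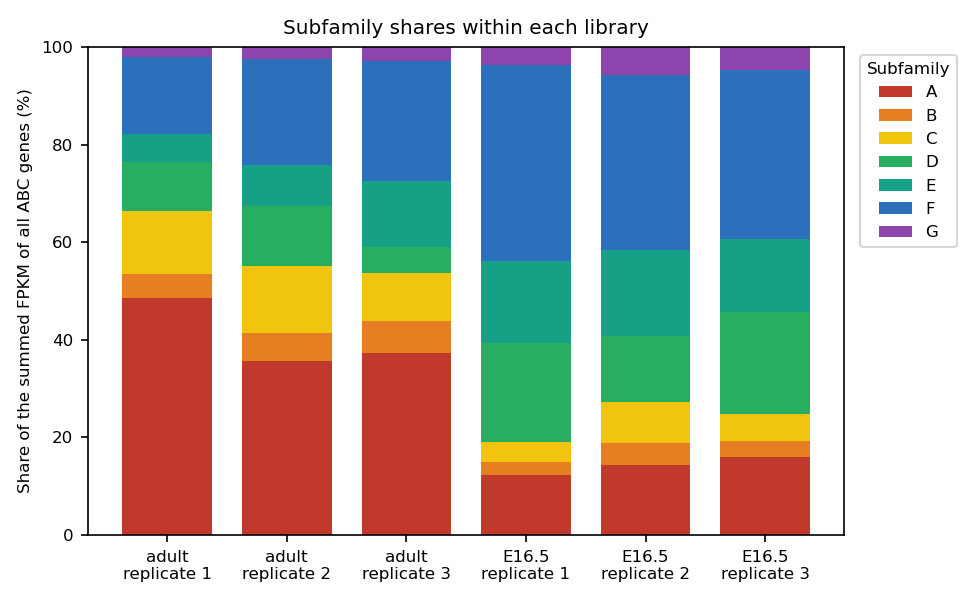
Share of the summed FPKM of all 50 ABC genes taken by each subfamily in each library, in percent, with 1 bar per library and colours for subfamilies A to G from the bottom. The subfamily A segment fills 35.8% to 48.6% of the adult bars and 12.3% to 15.96% of the E16.5 bars, and the E and F segments together 21.4% to 38.2% and 49.6% to 57.0%.

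Ordered by mean level per length, the ABC genes at E16.5 ran Abcf1, Abcd3, Abce1, then Abcf2 and Abca1. In adult the order ran Abca1 (73.6 ± 8.80 FPKM), Abcf1 (51.5 ± 20.4), Abca2, Abca4, Abce1 (49.5 ± 21.2), Abcd3 (47.5 ± 20.3) and Abcc4 (SD, n = 3 each). The adult values from Abcf1 to Abcd3 lie well inside each other's spread and have no settled order, whereas at E16.5 Abcf1 (97.9 ± 3.77 FPKM) and Abce1 (71.2 ± 1.08 FPKM) did not overlap and Abcd3 (75.3 ± 21.7 FPKM) ran from below Abce1 into the range of Abcf1. Over the tested ABC genes, on the log2(FPKM + 1) scale, the SD between replicates had a median of 0.72 in adult and 0.41 at E16.5.

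The 24 ABC genes below the filter were 13 listed at 0 in all 6 samples and 11 above 0 in at least 1. The 13 were Abca6, Abca12, Abca14, Abca15, Abca16 and Abca17, Abcb1b, Abcb5 and Abcb11, Abcc2, Abcc6 and Abcc12, and Abcg3. Beside Abcg8, Abca8b, Abca9, Abcb1a and Abcb4, the others above 0 were Abca13, Abcc3, Abcc8, Abcc9, Abcd2 and Abcd4, and none exceeded 2.74 FPKM in any sample. The sulfonylurea receptor genes Abcc8 and Abcc9, which form potassium channels with the pore genes Kcnj11 and Kcnj8, stayed at or under 0.671 FPKM, and Kcnj8 was listed at 0 in all 6 samples and Kcnj11 in all but adult replicate 3, at 1.99 FPKM. A 0 in this table is not a firm absence. In 15 cases a gene was at 0 in 1 library and stood for more than 30 estimated reads in another library of the same age, 9 of them in adult, of which 8 had the most reads in adult replicate 2.

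Genes known to act with the ABC proteins were read from lists, each with how many members were called. Of 20 genes of cholesterol efflux, uptake and synthesis, 2 were higher in adult, among them the desaturase gene Scd2 (change 1.68, adjusted p = 0.00845, limma), and none was higher at E16.5, beside 2.12% and 8.83% of all genes tested. At an unadjusted p under 0.05 the list gave 7 and 3. Apoe, the apolipoprotein gene, had a change of 0.10 (adjusted p = 0.809, limma). The list's median was 0.75, against -0.86 for all genes tested. Of 10 tested drug and oxysterol receptors and partners, 0 were higher in adult by limma (1 at an unadjusted p under 0.05) and 1, the aryl hydrocarbon receptor gene Ahr, was higher at E16.5 (change -2.95, adjusted p = 0.0325, limma), with a median of -0.39. The liver X receptor gene Nr1h2 had a change of 1.33 (adjusted p = 0.1001, limma).

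Among 17 tested conjugating enzymes and uptake carriers that work beside the efflux pumps, 2 rose and 3 fell from E16.5 to adult, where 2.12% and 8.83% of all genes tested did. Higher in adult were the epoxide hydrolase gene Ephx1 (change 2.19, adjusted p = 0.00828) and the thyroid hormone carrier gene Slco1c1 (3.24, adjusted p = 0.0156, limma). Lower were the glutathione transferase gene Gsta4 (-1.36, adjusted p = 0.0321), the glucuronosyltransferase gene Ugt1a6a (-3.80, adjusted p = 0.0368) and the sulfotransferase gene Sult1a1 (-4.74, adjusted p = 0.0368, limma). Ugt1a6a ran from 3.92 to 41.8 FPKM at E16.5 and was at 3.49e-07 FPKM or less in adult. Whether its reads were shared with other genes was not tested. The median of the list was -0.03.

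The counts of the other lists stand against the same 2.12% of all genes called higher in adult and 8.83% called higher at E16.5. The 15 tested genes of peroxisomal oxidation and import held 1 call, Hsd17b4 higher at E16.5 (change -3.36, adjusted p = 0.0494, limma), with a median of -0.25. The 19 genes of iron-sulfur cluster and haem synthesis held 1, Gfer higher at E16.5 (-3.46, adjusted p = 0.0364, limma), with a median of -0.90. The 12 tested partners of ribosome rescue held 0 by limma, with 0 at an unadjusted p under 0.05, and a median of -0.84. The 8 tested genes of peptide loading held 2, the chaperone genes Canx (1.51, adjusted p = 0.0201) and Pdia3 (1.08, adjusted p = 0.0414, limma), both higher in adult, with a median of 0.36. ABC proteins under other symbols were Cftr, listed at 0 in all 6 samples, and the peptide transporters Tap1 (change -0.58, adjusted p = 0.735) and Tap2 (1.75, adjusted p = 0.221, limma).

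**Figure D4:**
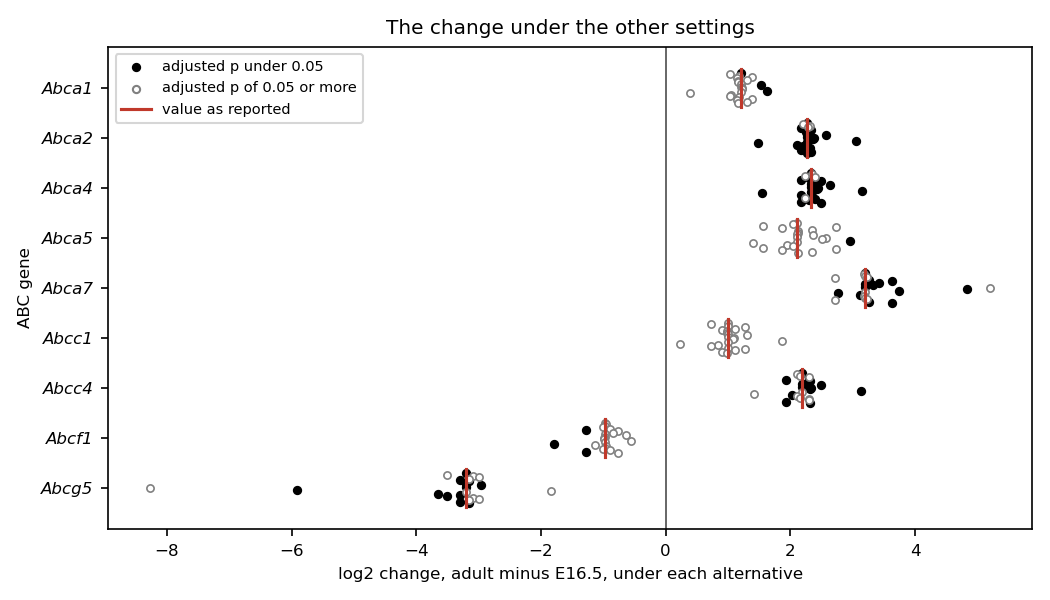
Change of 9 ABC genes (adult minus E16.5, log2 scale) under each alternative setting, with filled points where the adjusted p was under 0.05, open points where it was not, and a red line at the reported value. Points cover the 17 alternatives and 6 further fits that left out 1 library with the filter taken anew. No point of these 9 genes crosses 0, and Abca2 is the only one called in all 17 alternatives. Abca2 has open points in the further fits without an E16.5 library.

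Of the called genes, Abca2 was called in 17 of the 17 alternatives, Abca4 in 16, and Abca7, Abcc4 and Abcg5 in 11 each. Further fits took the filter on the mean anew over the remaining samples. There, leaving out any 1 of the E16.5 libraries left none of Abca2, Abca4, Abca7, Abcc4 and Abcg5 called (limma). At an unadjusted p under 0.05, 5 to 7 ABC genes were then higher in adult and 1 to 2 higher at E16.5. The share of all genes at that threshold was not computed for these fits, so these counts cannot be set against a background. Abca2 had an adjusted p of 0.0590 to 0.0644 (limma). In the same fits 0.236% to 0.408% of all genes were called higher in adult and 0.14% to 0.565% higher at E16.5. The changes of Abca2 and Abca4 were 2.196 to 2.32 and 2.23 to 2.401.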

How the data were processed

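TRAP-seq libraries of ChP, 3 adult and 3 E16.5, took their age group from the sample labels. Per the authors' methods, 50-base single-end reads were aligned to mm10 with STAR 2.4.0, and the deposited FPKM were calculated with Cuffquant of Cufflinks. Its annotation and strand setting are not given in the sources used here. The authors' DESeq2 test used read counts that were not analysed here.

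For the 11601 genes whose 6 samples averaged more than 1 FPKM, limma 3.58.1 (R 4.3.3) was fitted to log2(FPKM + 1) with a trend on intensity, and Benjamini-Hochberg adjusted p under 0.05 were called. Other fits were run under 17 alternatives. The test was tried on simulated data. Genes named are the ABC genes, with called or central genes of the lists, and some are not reported here. The ABC genes and lists were chosen with earlier results of these data known. Depth was estimated from the spacing of low FPKM values in 1601 single-transcript genes. Estimated reads are counting estimates only, without molecular identifiers. Coordinates and lengths are from GENCODE M21 (mm10), and promoters from RefSeq (first listed start of a gene).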

Additional observations from a re-analysis of the deposited data

How the results depend on the processing

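The direction of Abca1, Abca2, Abca4, Abca5, Abca7, Abcc1, Abcc4, Abcf1 and Abcg5 was kept in every alternative run. The 4 ABC genes called higher in adult became 7 with quantile normalization (4.9% of all genes called so), 2 with the replicate block (0.965%) and 1 to 4 with 1 library left out (0.776% to 2.91%), and the 1 called higher at E16.5 became 3 with equal summed FPKM (27.9% of all genes), 0 with a pseudocount of 0.01 (6.57%), quantile normalization (4.34%) or the replicate block (3.9%), and 0 to 2 with 1 library left out (3.01% to 14.7%). With the filter taken anew over the remaining samples, a setting added after the data were seen, the counts were 0 to 4 and 0 to 2. Without each E16.5 library, 0 were higher in adult (0.236% to 0.408% of all genes) and 0 at E16.5 (0.14% to 0.565%). The median change of the tested ABC genes over that of all genes, 1.19, was 1.62 and 1.86 with pseudocounts of 0.1 and 0.01, 0.74 with no filter, and 1.11 to 1.56 with 1 library left out.

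Scaling shifted the median of all genes from -0.86 to -0.58 (median ratio), -1.48 (equal summed FPKM) and 0.01 (quantile), and that of the ABC genes from 0.34 to 0.60, -0.14 and 1.32. No gene listed here whose direction turned was called: Abca3 -0.16, Abcb8 -0.092, Abcb9 -0.14, Abcc5 -0.53, Abcc10 -0.15, Abcf3 -0.45 and Abcg2 -0.12 with equal summed FPKM, Abcb6 0.98 and Abcb10 0.58 with quantile normalization, Abcb9 -0.29 and -1.33 and Abcc10 -0.85 and -2.83 with pseudocounts of 0.1 and 0.01. With 1 library left out, Abcb6 ranged from -1.38 to 0.68, Abcb9 from -0.14 to 1.14, Abcc5 from -0.25 to 0.79, Abcc10 from -0.82 to 0.72, Abcf3 from -0.12 to 0.66 and Abcg2 from -0.24 to 0.86. The cause was not tested.

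Same-numbered samples did not deviate together (correlations of 0.0009, 0.0439 and 0.0150), so the numbers pair nothing that the data show. The fit with them as a replicate block called 2 genes higher in adult and 0 at E16.5 (limma, 6 and 2 at an unadjusted p under 0.05). The share of all genes at the unadjusted threshold was not computed for that fit. In adult replicate 3, 36.4% of the tested genes were at 0, and the cause was not tested.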
